A study of Mus musculus with 8 samples.

Results

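The cells described here are cycling macrophages of mouse MC38 tumors, chosen cell by cell from raw counts of unique molecular identifiers (UMIs), each of which stands for 1 captured transcript. A member had at least 5 UMIs of *C1qa*, *C1qb* and *C1qc* together, at least 2 UMIs of *Mki67* and *Top2a* together, no UMI of *Cd3d*, *Cd3e*, *Cd3g* or *Ncr1*, and at most 2 UMIs of *Mtap* and *Rhox5*, which mark MC38 cells. Of 9886 cells kept by limits on genes, UMIs and mitochondrial UMIs, 3777 met every condition but the one on *Mki67* and *Top2a* and are called C1q-positive, and 908 of these were cycling macrophages. A further 2287 C1q-positive cells had no UMI of *Mki67* or *Top2a* and are called non-cycling, and 582 with 1 such UMI were placed in neither class. The values that chose the members are given as a description and were not tested, except that the share of cells passing the cycle gate was compared between treatments.

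The study asked which cells of a tumor respond when the toll-like receptor 7 agonist R848 is released slowly from a polymer, the R848 bottlebrush prodrug (R848-BPD). MC38, a colon carcinoma line grafted under the skin of C57BL/6J mice, which the study's methods give as female and 8 weeks old, formed the tumors. Each mouse was given saline (3 tumors), free R848 (3 tumors) or the R848-BPDs of medium release rate (2 tumors), and the tumor was taken 24 h later. CD45+ and CD45- cells were separated and loaded with CD45+ cells in large excess onto Seq-Well arrays, which capture single cells in wells with barcoded beads, so a share of all cells is not a share of the tumor. All 8 tumors carried the same line and host strain, and 1 replicate is 1 tumor. Sequencing runs were not given, so a run and a treatment cannot be told apart. Total UMIs ran from 5867590 to 12422614 per tumor, with a median of 3247 to 6928 UMIs per kept cell. Of the barcode sequences, 23 were found in more than 1 tumor, and none belonged to a member.

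Macrophages of a tumor are fed by monocytes that enter from blood, and by division of macrophages already in the tissue. C1q, the recognition part of the classical complement pathway, is made by mature tissue macrophages far more than by monocytes. Division of macrophages is driven by CSF1 acting on its receptor CSF1R, which raises D-type cyclins and so releases the E2F factors that switch on genes of DNA replication. Genes of G2 and mitosis come later, and are held silent in resting cells by the DREAM complex bound at short promoter elements called CHR and released by the factors MYBL2 (B-Myb) and FOXM1. Ki-67, the product of *Mki67*, coats mitotic chromosomes, and *Top2a* encodes the topoisomerase that untangles DNA before division, so both mark cells from S phase to mitosis.

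Promoters of cycle genes are shown because the members are defined by 2 of these genes and their class is followed below through the S phase and the G2 and M phase lists. The 200 bases before the start of *Mki67* (chr7:135716380-135716579, minus strand), *Cdk1* (chr10:69352913-69353112, minus strand), *Ccnb2* (chr9:70421555-70421754, minus strand) and *Mcm5* (chr8:75109309-75109508, plus strand) are from RefSeq on GRCm38.p6 and are written 5′ to 3′ along the gene. Capitals mark the letters TTTGAA, as in the CHR, in the first 3, which encode Ki-67, the kinase of mitotic entry and cyclin B2, and an E2F-like element in *Mcm5*, a subunit of the replicative helicase.
Mki67: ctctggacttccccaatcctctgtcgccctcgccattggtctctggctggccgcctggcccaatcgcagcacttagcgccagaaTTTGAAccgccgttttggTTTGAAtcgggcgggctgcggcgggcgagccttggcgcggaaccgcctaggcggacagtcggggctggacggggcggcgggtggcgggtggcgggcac
Cdk1: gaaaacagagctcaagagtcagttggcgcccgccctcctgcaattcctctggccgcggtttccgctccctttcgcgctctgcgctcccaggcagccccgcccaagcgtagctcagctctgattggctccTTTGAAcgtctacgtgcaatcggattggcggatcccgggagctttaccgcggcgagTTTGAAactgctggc
Ccnb2: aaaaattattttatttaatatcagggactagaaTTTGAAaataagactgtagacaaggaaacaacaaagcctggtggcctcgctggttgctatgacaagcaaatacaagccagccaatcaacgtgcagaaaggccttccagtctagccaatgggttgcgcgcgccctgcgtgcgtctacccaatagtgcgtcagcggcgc
Mcm5: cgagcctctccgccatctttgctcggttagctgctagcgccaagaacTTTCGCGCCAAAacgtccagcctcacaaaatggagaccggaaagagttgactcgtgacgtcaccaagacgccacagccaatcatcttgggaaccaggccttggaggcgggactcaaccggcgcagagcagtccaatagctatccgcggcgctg

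In *Mcm5* the capitals are TTTCGCGC overlapping GCGCCAAA, the reverse complement of TTTGGCGC. The *Cdk1* stretch holds TTTCGCGC as well, which was left in small letters because only TTTGAA is marked there. TTTGAA was searched on either strand in 300 bases around the start (250 before and 50 after) and was found in 20.2% of the 27025 genes with such a promoter. It was in 32 of the 46 genes of the G2 and M phase list that matched the table (69.6%), against 6 of 32 genes of the S phase list (18.8%) and 0 of 24 inflammatory genes. An E2F-like element (TTTGGCGC, TTTCGCGC or TTTCCCGC) was in 2.12% of all promoters, in 14 of 32 S phase genes (43.8%) and in 3 of 46 G2 and M phase genes (6.52%). A match of letters is a description and not a bound site.

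The markers of both classes are given as a description, since the rule used some of them. Summed over an 11-gene macrophage list that includes C1q, *Csf1r* and *Mertk*, members held 182 to 249 UMIs per 10000 UMIs across tumors, against 213 to 331 in non-cycling cells. The 8-gene list of cycle markers stood at 9.94 to 26.5 per 10000 in members and at 0.195 to 0.371 in non-cycling cells. The median number of C1q UMIs was 77 per member and 42 per non-cycling cell, and 30 members had 5 to 9 C1q UMIs, of which 6 had exactly 5. C1q is part of the first list, and *Mki67* and *Top2a* made up 9.26 and 6.35 of the 21.2 UMIs per 10000 of the second over all members, and are at 0 in non-cycling cells by the rule. Of markers the rule did not use, *Csf1r* was found in 94.8% of members, *Cd68* in 96.3%, *Fcgr1* in 95.7% and *Ms4a7* in 92.3%, against 85.5% to 94.5% of non-cycling cells, which were shallower. *Cdk1* was found in 41.3% of members and 3.76% of non-cycling cells, and *Ccna2* in 45.3% and 2.58%.

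Markers of other cells were found in members too. The list of monocyte genes (*Ly6c2*, *Ccr2*, *Plac8*, *Vcan*) reached 2.03 to 18.5 UMIs per 10000 in members and 7.84 to 26.1 in non-cycling cells, with all 4 genes detected. The list of 8 MC38 markers stood at 0.61 to 1.09 per 10000 in members and at 0.449 to 0.741 in non-cycling cells, and was higher in members in 8 of 8 tumors. The 11 T cell markers were at 0.529 to 4.4 in members and 1.15 to 3.74 in non-cycling cells, with the 3 *Cd3* genes at 0 by the rule. NK markers were at 0 to 3.65 and 0.104 to 1.21, and fibroblast markers at 0.0329 to 12.6 and 0.0588 to 2.11. Of the fibroblast UMIs in free R848 replicate 2, 98.7% came from 1 member, as did 98.5% of the NK marker UMIs in medium R848-BPD replicate 2. The 7 neutrophil markers were at 0.18 to 1.6 per 10000 in members and 0.44 to 5.91 in non-cycling cells, and the 8 dendritic cell markers at 0.271 to 2.8 and 0.207 to 2.04. In members both lists were highest in the 2 medium R848-BPD tumors, at 0.788 and 1.6 for neutrophils and 0.821 and 2.8 for dendritic cells, against at most 0.541 and 0.469 in the control tumors. The 6 osteoclast markers reached 1.45 to 15.2 per 10000 in members and 1.56 to 12.3 in non-cycling cells, and 73.7% of members held a UMI of the list, mostly of *Acp5* (69.8%). B cell markers were at 0.196 to 1.53 and 0.0673 to 0.898, endothelial markers at 0.32 to 1.11 and 0.618 to 1.29, and erythroid markers at 0 to 0.0165 and 0 to 0.00772. In all, 229 members (25.2%) held more than 2 UMIs of MC38, fibroblast, T or NK markers, against 23.1% of non-cycling cells. Scrublet marked 7 members (0.771%) as doublets, and 100 of the 9886 kept cells (1.01%), and these were kept. Before the exclusions, 1174 cells had passed the conditions on C1q and cycle genes, of which 194 had more than 2 UMIs of *Mtap* and *Rhox5*, 67 a *Cd3* UMI and 20 an *Ncr1* UMI.

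The level of the cycle lists rose in steps with the UMIs of *Mki67* (chr7:135689784-135716361) and *Top2a* (chr11:98992943-99024189). Read with the S phase and G2 and M phase lists, from which *Mki67* and *Top2a* were left out, the median cell without a gate UMI held 14.9 list UMIs per 10000 of its UMIs, and the median cell with 1 gate UMI held 18.2. The 239 members with 2 gate UMIs were at 21.3 and the 94 with 3 at 30.2. The 211 members with 4 to 9 gate UMIs were at 81.2 and the 364 with 10 or more at 139. These medians pool the tumors, and 187 of those 364 members were from saline replicate 2. The median member just inside the gate therefore stood nearer to the excluded cells than to members with many gate UMIs, but the spread there was wide, with upper quartiles of 43 at 2 and 64 at 3 gate UMIs against 21.2 without one, and depth rose along the same steps, from a median of 4995 UMIs per cell without a gate UMI to 8257 in cells with 10 or more. The median member had 6 gate UMIs and the highest had 112. Of the non-cycling cells, 896 (39.2%) held 10 or more list UMIs.

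**Figure D1:**
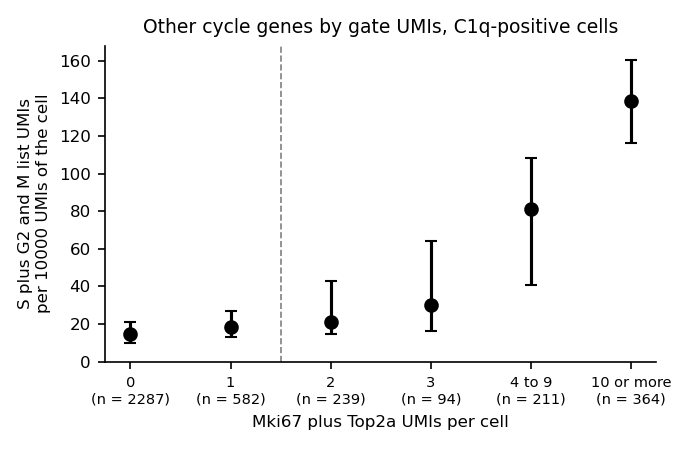
UMIs of the S phase and G2 and M phase lists per 10000 UMIs of a cell (y axis) in C1q-positive cells grouped by their summed *Mki67* and *Top2a* UMIs (x axis); points are medians over cells, bars span the quartiles and the dashed line marks the gate. The median stays between 14.9 and 30.2 up to 3 gate UMIs and reaches 81.2 at 4 to 9 and 139 at 10 or more.

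Members with many gate UMIs were a larger share in saline tumors than after medium R848-BPDs by the first of the measures below, and the other groups overlapped. Members with at least 4 gate UMIs made up 57.8%, 78.3% and 59.5% of the members in the saline tumors, 48.7%, 58.4% and 40% after free R848, and 54.8% and 49% after medium R848-BPDs. Those with 10 or more made up 42.2%, 54% and 32.1% after saline, 28.2%, 33.7% and 14% after free R848, and 36.9% and 14.3% after medium R848-BPDs. On the first measure the saline tumors lay above both medium R848-BPD tumors and overlapped with free R848, and on the second all groups overlapped. Saline replicate 2, with 346 members, was the highest on both measures, and free R848 replicate 3 and medium R848-BPD replicate 2, with 50 and 49 members, were the lowest on the second.

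Members fell along the cycle from S phase to mitosis. Of the 822 members with at least 10 list UMIs, 74 drew more than 75% of them from the S phase list, 220 drew less than 25%, and 528 lay between, with a median S phase part of 42.7%. Those with less than 25% had a median of 16.5 gate UMIs, against 3.5 in those with more than 75%, which held a median of 71.5 list UMIs. Members that drew mostly on replication genes thus lay close to the limit of the gate. These counts pool the tumors, between which the split varied. By tumor, 4.65% to 38.2% of such members drew less than 25% from the S phase list and 0% to 11.5% more than 75%.

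The mix of S and G2 or M transcripts did not separate the treatments. The log2 ratio of summed S phase to summed G2 and M phase UMIs in members was -0.56, -0.53 and -0.73 in the saline tumors, -0.32, -0.58 and -0.06 after free R848, and -1.08 and -0.05 after medium R848-BPDs. The 2 medium R848-BPD tumors lay on either side of all the others. The difference from free R848 was -0.24 (exact permutation test over tumors, two-sided, p = 0.7) and that from saline 0.04 (exact p = 1), and free R848 differed from saline by 0.29 (exact p = 0.3). The smallest p that either split of 2 and 3 tumors, or of 3 and 3, can give is 0.1, so none of these exact tests between a pair of groups could reach 0.05.

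The share of C1q-positive cells that cycled was highest after saline. By the raw gate, cycling macrophages made up 27.9%, 41% and 22.1% of the C1q-positive cells in the saline tumors (mean 30.3% ± 9.71, SD, n = 3), 22.4%, 17.1% and 16.3% after free R848 (18.6% ± 3.32, n = 3), and 16.6% and 12.7% after medium R848-BPDs (14.6% ± 2.76, n = 2). The lowest saline tumor, at 22.1%, lay just below the highest free R848 tumor, at 22.4%, while both medium R848-BPD tumors lay below all saline tumors. The exact permutation p was 0.2 for free R848 against saline, 0.2 for medium R848-BPDs against saline and 0.4 for medium R848-BPDs against free R848.

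Since a deeper cell passes a limit on UMIs more easily, each C1q-positive cell was also thinned to 2000 UMIs and counted as cycling with at least 1 *Mki67* or *Top2a* UMI left. This left out 63 C1q-positive cells, 0 to 31 per tumor, 1 of them a member. The shares were then 29%, 40.5% and 26.1% after saline (31.9% ± 7.63, SD, n = 3), 21.8%, 18.4% and 19.5% after free R848 (19.9% ± 1.7, n = 3), and 15.2% and 15.4% after medium R848-BPDs (15.3% ± 0.125, n = 2). No groups overlapped in any of the 3 comparisons. Medium R848-BPDs were lower than saline by 16.6 percentage points and lower than free R848 by 4.62, and free R848 was lower than saline by 12. Both differences from saline are enlarged by saline replicate 2, at 40.5% against 29% and 26.1% in the other saline tumors. The exact permutation p was 0.1 in each comparison, also after Benjamini-Hochberg adjustment over the 3, which is the smallest these designs allow.

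The background sets a floor under these shares. Among 74 neutrophils, cells with at least 20 UMIs of *S100a8* and *S100a9* and at most 2 of C1q, which do not divide in tissue, 4.05% passed the raw gate on cycle genes (3 cells, exact 95% interval 0.844 to 11.4) at a median of 3608.5 UMIs. C1q-positive cells had a median of 5494 UMIs. After thinning, 9 of 68 neutrophils (13.2%, exact interval 6.23 to 23.6) held a cycle UMI, which is close to the 15.2% and 15.4% of medium R848-BPD tumors. The thinned shares after medium R848-BPDs, and those of 18.4% to 21.8% after free R848, lie within this interval, so the thinned measure does not separate them from background, while all 3 saline tumors lie above it. By the raw gate all 8 tumors, at 12.7% to 41%, lie above the interval of the neutrophils, which were shallower. With at least 4 raw gate UMIs the share was 16.1%, 32.1% and 13.2% after saline, 10.9%, 10.02% and 6.51% after free R848 and 9.07% and 6.2% after medium R848-BPDs, against 1.35% of neutrophils (1 of 74). Saline was above the other groups by this measure too, and those overlapped. Thinned to 4000 UMIs with at least 2 cycle UMIs, a setting chosen after the data were seen, the share was 27.3%, 37% and 29.3% after saline, 12.9%, 15.4% and 13.1% after free R848 and 13.2% and 10.5% after medium R848-BPDs, with 9.09% in neutrophils (3 of 33 cells, exact 95% interval 1.92 to 24.3). Free R848 and medium R848-BPDs overlapped under that setting (exact p = 0.5), and both stayed below all saline tumors (exact p = 0.1 each). These intervals cover counting error only. The limit on C1q has a background as well. At least 5 C1q UMIs were held by 8.46% of T or NK cells (at least 2 *Cd3* UMIs or 1 of *Ncr1*). The same held for 8.95% of MC38 cells (at least 5 UMIs of *Mtap* and *Rhox5*). Of these 2 classes, 54.2% and 73.3% passed the raw gate on cycle genes.

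The cycle lists, read over all C1q-positive cells without any gate, gave the same order of groups. They held 49.9, 63.4 and 41.8 UMIs per 10000 after saline, 29.8, 35 and 26.4 after free R848, and 29 and 21.1 after medium R848-BPDs. The 3 saline tumors were above the other 5, and the other two groups overlapped. The difference from saline was -26.7 for medium R848-BPDs and -21.3 for free R848 (exact permutation p = 0.1 and adjusted p = 0.15 each), and medium R848-BPDs differed from free R848 by -5.34 (exact p = 0.4). In neutrophils the level was 20.6. As a share of all kept cells, members were 8.45%, 24% and 6.65% after saline, 7.65%, 7.69% and 5.61% after free R848 and 6.17% and 4.01% after medium R848-BPDs, and by this measure saline replicate 3 lay within the range of the free R848 tumors. With cells called cycling at 10 or more list UMIs instead, every group overlapped every other, with means of 55.5%, 53.3% and 45.9%.

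**Figure D2:**
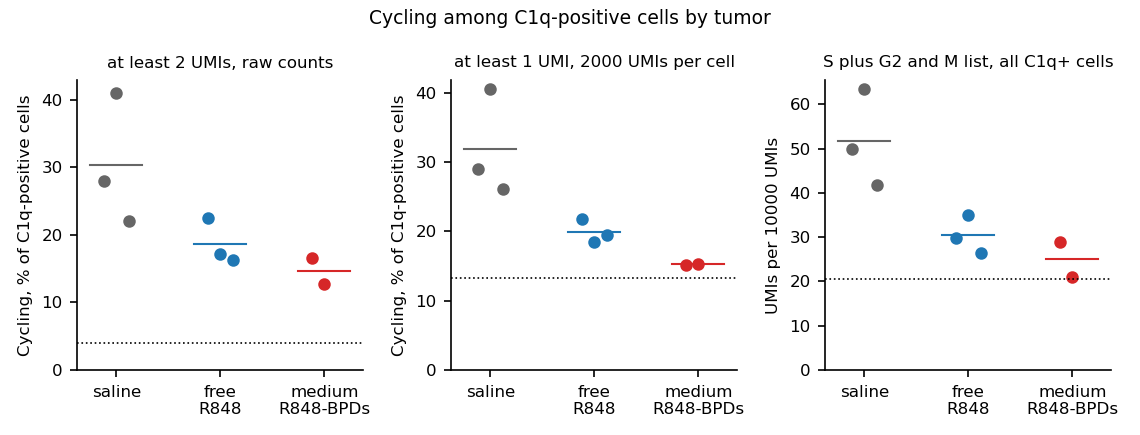
Cycling among C1q-positive cells in each tumor: the share by the raw gate (left, %), the share after thinning to 2000 UMIs per cell (middle, %) and the UMIs of the cycle lists per 10000 over all C1q-positive cells (right). Points are tumors, bars are group means and the dotted lines are the neutrophil levels of 4.05%, 13.2% and 20.6. The saline tumors are highest in the middle and right panels, and in the right panel the medium R848-BPD tumors are at 29 and 21.1, of which only the latter is close to the dotted line.

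Members were then set against the non-cycling C1q-positive cells of the same tumor, with UMIs summed per tumor and class and the tumor as a block (edgeR quasi-likelihood test, Benjamini-Hochberg adjustment over all genes tested, called below 0.05). Of 9103 genes, 2675 were called (29.4%), 1064 higher (11.7%) and 1611 lower (17.7%) in members, and these shares are the background for each list below. The genes of the gate and of the cycle lists were left out of the test. Members were deeper than non-cycling cells, by 1.22 times in saline replicate 2, where medians were 6956.5 and 5690 UMIs, and up to 1.78 times in saline replicate 3. With non-cycling cells chosen to match the members on UMIs, 1896 genes were called, but the match was incomplete in saline replicates 1 and 2, where medians were still 7021.5 against 6140.5 and 6956.5 against 5777 UMIs. Levels are given in CPM, the UMIs of a gene scaled to a common library size after TMM normalization, so levels are compared between cells and not between genes.

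The genes of the cycle lists, given as a description, were higher almost throughout. All 44 S phase genes had, and so had all 53 of the 54 G2 and M phase genes that passed the filter, positive log2 fold changes, with medians of 1.9 and 3.59, beside a median of -0.06 over all tested genes. *Cdk1*, the kinase of mitotic entry whose promoter is shown above, ran from 45.6 to 150 CPM in members and from 2.09 to 12.1 in non-cycling cells. *Mcm5* ran from 97.1 to 200 CPM and from 16.9 to 78.7, and *Rrm2*, the small subunit of ribonucleotide reductase, from 19.2 to 102 and from 4.03 to 8.37. The ranges of *Cdk1*, *Mcm5* and *Rrm2* did not overlap between the classes. Genes of nucleotide synthesis had a median of 0.75 (31 genes) and chromatin and tubulin genes one of 0.97 (21 genes). Of 63 replication-dependent histone genes, whose transcripts as a class lack a poly(A) tail, 13 passed the filter, and their median was 2.62.

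The 10 genes with the largest called increase outside those lists, among genes of a mean log2 CPM of at least 5 that were higher in 8 of 8 tumors, were *2810417H13Rik* (the PCNA-binding factor Pclaf), *Casc5* (the kinetochore scaffold Knl1), *Kif15*, *Prc1*, *Kif20a*, *Ncaph*, *Knstrn*, *Kif4*, *Bub1b* and *D17H6S56E-5*. *2810417H13Rik* ran from 59.1 to 150 CPM in members and from 0.807 to 5.8 in non-cycling cells, a log2 fold change of 4.91 ± 0.18 (SE, edgeR adjusted p = 9.91e-14). *Prc1*, which bundles the microtubules of the mitotic midzone, ran from 26.4 to 159 CPM against 1.05 to 9.1 (4.14 ± 0.23, edgeR adjusted p = 2.24e-11). The kinesins, condensin and spindle genes among these 10 act in mitosis, although they were not on the lists.

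Of 14 tested drivers of G1 and of S phase entry, 10 rose and none fell, with a median of 0.85. Drivers that are expressed together with *Mki67* and *Top2a* were bound to be higher through the gate. These counts and p-values are therefore a description, and the called shares over all genes are no fair background for them. *Mybl2*, the factor that opens DREAM-held genes, ran from 5.26 to 23.3 CPM in members and from 0 to 4.35 in non-cycling cells (log2 fold change 2.97 ± 0.35, edgeR adjusted p = 1.5e-06). *Foxm1*, the transcription factor of mitotic genes, was at 48.6, 55.5 and 50.5 CPM in members of the saline tumors, 25.5, 32.8 and 26.4 after free R848 and 35.7 and 17.1 after medium R848-BPDs, and at 0 to 4.14 in non-cycling cells (3.85 ± 0.30, edgeR adjusted p = 3.75e-09). Both were higher in members in 8 of 8 tumors, as were *Ccne1*, cyclin E1 (2.96 ± 0.24, edgeR adjusted p = 9.96e-09), *E2f1* (0.90 ± 0.10, 1.02e-06) and *Cdk4* (0.81 ± 0.09, 5.65e-07). *Myc* rose by less (0.52 ± 0.16, edgeR adjusted p = 0.0202) and its call was lost without medium R848-BPD replicate 1, at 0.45. *Ccnd1*, the cyclin through which CSF1 acts on the G1 kinases, was at 197 to 773 CPM in members and 170 to 731 in non-cycling cells and was not called (0.21 ± 0.08, edgeR adjusted p = 0.0577), although leaving out free R848 replicate 2, medium R848-BPD replicate 1 or saline replicate 2 gave a call, at 0.26, 0.25 and 0.29.

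**Figure D3:**
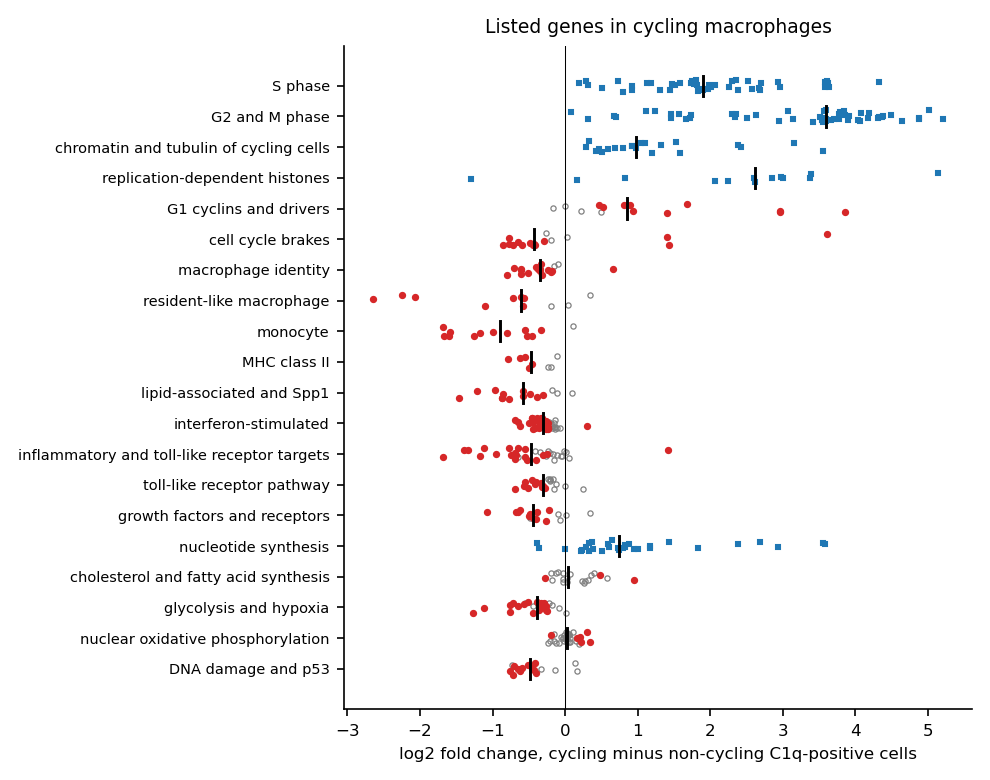
Log2 fold change between members and non-cycling cells (x axis) for each gene of 20 lists (rows); filled red circles were called, open circles were tested and not called, blue squares are cycle genes that were not tested and black ticks are list medians. All genes of the S phase and the G2 and M phase lists lie to the right of 0, with medians of 1.9 and 3.59, as do 12 of 14 G1 drivers, with a median of 0.85, and most macrophage, monocyte and inflammatory genes lie to the left.

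Of 17 tested brakes on division, 11 fell and 3 rose. *Cdkn1a*, which encodes the cyclin-kinase inhibitor p21, was lower in members in 8 of 8 tumors, at 790 to 1379 CPM against 1204 to 2240 (-0.66 ± 0.07, edgeR adjusted p = 2.8e-07). *Btg2* (-0.85 ± 0.11, 3.89e-06) and *Klf4* (-0.77 ± 0.08, 5.65e-07), which both restrain proliferation, fell as well. The 3 that rose were *Cdkn2c* (p18INK4c), *Cdkn2d* (p19INK4d) and *Rbl1* (p107), all of which are themselves switched on in cycling cells. Their rise is tied to the gate in the same way as that of the drivers. *Cdkn2c* ran from 20.1 to 59.7 CPM in members and from 1.61 to 7.32 in non-cycling cells (3.60 ± 0.22, edgeR adjusted p = 9.91e-11). Of 16 tested genes of the p53 response, 11 fell and none rose (median -0.48).

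Genes of macrophage identity were kept at a lower level per UMI. Of 18 tested, 15 fell, 1 rose and the median was -0.35. *Apoe*, the lipid carrier made by tissue macrophages, was at 6035 to 9219 CPM in members and 8363 to 16602 in non-cycling cells, and was lower in 8 of 8 tumors (-0.61 ± 0.08, edgeR adjusted p = 6.38e-06). *Csf1r* was not called (-0.10 ± 0.06, edgeR adjusted p = 0.234). CPM are shares of all UMIs, and the median member held 1.22 to 1.78 times the UMIs of the median non-cycling cell. A lower CPM is thus a smaller share and need not be fewer captured transcripts per cell.

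*Cx3cr1* (chr9:119901616-120069879), the fractalkine receptor, was the 1 identity gene that rose. It was at 728, 891 and 448 CPM in members of the saline tumors, 727, 742 and 514 after free R848 and 781 and 117 after medium R848-BPDs. In non-cycling cells it was at 450, 648 and 267, then 449, 433 and 333, and then 380 and 126 CPM. Members were higher in 7 of 8 tumors, all but medium R848-BPD replicate 2 (0.67 ± 0.08, edgeR adjusted p = 2.49e-06). The share of members with a *Cx3cr1* UMI was 67.9% to 93.4% after saline, 56% to 81.2% after free R848, and 65.5% and 28.6% after medium R848-BPDs.

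Monocyte genes showed the largest drop among the macrophage lists. Of 14 tested, 12 fell and none rose, with a median of -0.90. *Ly6c2*, the surface marker of classical monocytes, was at 191, 94.3 and 44.4 CPM in members of the saline tumors, 466, 309 and 672 after free R848, and 139 and 228 after medium R848-BPDs. In non-cycling cells it was at 899, 269 and 726, then 1165, 1047 and 1069, and then 362 and 350 CPM, above the members in 8 of 8 tumors (-1.60 ± 0.20, edgeR adjusted p = 3.05e-06). *Plac8* (-1.17 ± 0.16, edgeR adjusted p = 1.46e-05) and *Ccr2*, the receptor by which monocytes leave marrow (-0.79 ± 0.12, 2.36e-05), were also lower in 8 of 8 tumors. *Vcan* fell by 1.69 (SE 0.30, edgeR adjusted p = 0.000218) and was lower in 7 of 8, since in medium R848-BPD replicate 2 it was at 79.9 CPM in members and 76.2 in non-cycling cells. Genes of resident-like macrophages went the same way, with 8 of 11 lower and none higher (median -0.60). *Lyve1* and *Cd163* are among these, but their fold changes (-2.07 and -2.24) rest on few UMIs in most tumors, and *Cd163* lost its call without medium R848-BPD replicate 2, at -1.38.

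Most called inflammatory, interferon and antigen-presentation genes were lower too, but the summed lists were not lower in every tumor. Per 10000 UMIs the interferon list was higher in members of medium R848-BPD replicate 2, at 216 against 188. The MHC class II list was higher in members of both medium R848-BPD tumors, at 14.5 against 13.6 and 33.8 against 19.2. In the other tumors these 2 lists were lower in members. Of 34 inflammatory genes, 19 fell and 1 rose (median -0.47), and of 43 interferon-stimulated genes 30 fell and 1 rose (median -0.31). *Il1b*, the inflammatory cytokine, was at 1272 to 3040 CPM in members and 1457 to 6265 in non-cycling cells and was lower in 7 of 8 tumors (-0.78 ± 0.14, edgeR adjusted p = 0.000163). *Cxcl10*, a T cell attractant, was the interferon-stimulated gene that rose (0.30 ± 0.11, edgeR adjusted p = 0.0483), in 5 of 8 tumors, and the call was lost on leaving out any of 5 tumors, with values of 0.18 to 0.31. *Marco*, a scavenger receptor, was the inflammatory gene that rose (1.42), but its call was lost without medium R848-BPD replicate 2 (0.97) and it turned to -0.36 when cells with more than 2 UMIs of other cells' markers were left out, a setting chosen after the data were seen. Of 8 genes of MHC class II, 5 fell, with *H2-Ab1* at -0.46 ± 0.13 (edgeR adjusted p = 0.00835). Of 21 genes of the toll-like receptor pathway, 12 fell and none rose (median -0.30), among them *Tlr7*, the receptor of R848 (-0.30), whose call was lost without free R848 replicate 2 (-0.26), medium R848-BPD replicate 1 (-0.22) or saline replicate 2 (-0.29).

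The genes with the largest called decrease, lower in 8 of 8 tumors, were *Inhba*, *Saa3*, *Chi3l3*, *Thbs1*, *F10*, *Ly6c2*, *Gpnmb*, *Gab1*, *Ccl6* and *Tmem8*. *Inhba*, the activin A subunit, was at 9.17, 1.06 and 10.7 CPM in members of the saline tumors, 12.1, 8.47 and 9.61 after free R848, and 17.9 and 59.9 after medium R848-BPDs. In non-cycling cells it was at 70.4, 3.38 and 52.3, then 27.9, 27 and 59.6, and then 151 and 142 CPM (-2.19 ± 0.20, edgeR adjusted p = 5.29e-08). *Thbs1*, the matrix protein thrombospondin 1, was at 210 to 2284 CPM in members and 855 to 3004 in non-cycling cells (-1.66 ± 0.20, edgeR adjusted p = 2.05e-06), and *F10*, coagulation factor X, at 7.77 to 203 against 18.3 to 285 (-1.66 ± 0.18, 6.16e-07). Levels in both classes ranged widely between tumors, and it is the within-tumor difference that has 1 sign.

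Metabolic genes did not move as a block. Of 23 genes of glycolysis and hypoxia, 17 fell and none rose (median -0.38), with *Vegfa*, the vascular growth factor, at 113 to 256 CPM in members and 271 to 611 in non-cycling cells (-1.11 ± 0.12, edgeR adjusted p = 4.99e-07). Of 38 nuclear genes of oxidative phosphorylation 5 rose and 1 fell (median 0.02). Summed as UMIs per 10000, without TMM scaling, that list was higher in members in every tumor, at 51.2 to 69.2 against 48.2 to 56.7. Of 20 genes of cholesterol and fatty acid synthesis 2 rose and 1 fell (median 0.04). *Fasn*, fatty acid synthase, was the larger of the 2 (0.94 ± 0.19, edgeR adjusted p = 0.000664), at 16.1 to 50.5 CPM against 6.66 to 28.2. Of 15 genes of lipid-associated and *Spp1* macrophages 12 fell (median -0.58), and of 17 growth factors and receptors 12 fell (median -0.44).

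Treatments were compared within the members, with UMIs summed per tumor (edgeR quasi-likelihood test on all 8 tumors in 1 fit, 8404 genes). Against saline, medium R848-BPDs changed 163 genes (1.94%), 118 higher (1.4%) and 45 lower (0.535%), and against free R848 they changed 19 (0.226%), 16 higher (0.19%) and 3 lower (0.0357%). Between free R848 and saline no gene was called by edgeR (0%), 663 had an unadjusted p under 0.05, and DESeq2 called 16. Since the comparisons with medium R848-BPDs use the same 2 tumors, and each control group enters 2 comparisons, they are not independent. Sums of members held 356518 to 2645059 UMIs, the least in medium R848-BPD replicate 2. Leaving out medium R848-BPD replicate 2 took the count against saline to 37, leaving out saline replicate 1 took it to 80 and leaving out saline replicate 2 raised it to 275. Against free R848 it was 4 without free R848 replicate 2, 7 without medium R848-BPD replicate 2, 10 and 11 without free R848 replicates 3 and 1, and 58 without saline replicate 2. Between free R848 and saline it was 26 without saline replicate 2.

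Inflammatory genes made up the largest group among the lists. Of 32 tested inflammatory and toll-like receptor targets, 11 rose against saline (*Saa3*, *Lcn2*, *Marco*, *Cxcl3*, *Mmp8*, *Cd38*, *Nos2*, *Fpr1*, *Ccl5*, *Procr* and *Sod2*) and none fell, with a median log2 fold change of 0.44 beside -0.02 over all genes. Against free R848, 7 rose (*Saa3*, *Lcn2*, *Marco*, *Cd38*, *Nos2*, *Fpr1* and *Sod2*) and none fell, with a median of 1.17 beside -0.01. These lists were drawn up with earlier results of these data known, so their counts are no independent evidence of a direction. Markers of neutrophils, of NK and T cells and of dendritic cells, which also express some of these genes, moved with them. The neutrophil list was at 0.788 and 1.6 UMIs per 10000 in members after medium R848-BPDs, with 42.3% and 43.9% of it from 1 member each, against 0.18 to 0.25 after saline and 0.22 to 0.541 after free R848. Its defining genes *S100a8* and *S100a9* were called against saline (edgeR adjusted p = 0.00936 and 0.00893), with 41 and 42 UMIs against 1 each (ratios of 139 and 142, exact counting intervals 23.5 to 5607 and 24.1 to 5741), and both calls were lost without medium R848-BPD replicate 2, at 5.98 and 5.69 on the log2 scale. The NK list was at 2.84 and 3.65, with 65.2% and 98.5% from 1 member each, against 0.0659 to 1.82 after saline and 0 to 0.356 after free R848, and *Ncr1* is at 0 by the rule. The T cell list was at 2.13 and 4.4, against 0.529 to 1.57 in the 6 control tumors, with the 3 *Cd3* genes at 0 by the rule. Most of it was *Il7r*, at 1.46 and 3.84 per 10000, while *Trac* was at 0 in both medium R848-BPD tumors. *Il7r* was found in 27.6% of members and 36% of non-cycling cells, so it did not mark T cells alone here. The dendritic list was at 0.821 and 2.8, against at most 0.469. The part of these cells in the rise was not tested.

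*Saa3* (chr7:46711998-46715700), which encodes the acute-phase protein serum amyloid A3, was higher after medium R848-BPDs than in either control group. In members it was at 0, 0.353 and 0 CPM in the saline tumors, 5.37, 46.6 and 60 after free R848, and 6779 and 8316 after medium R848-BPDs. The 3 groups did not overlap. Against free R848 the log2 fold change was 7.72 ± 0.57 (SE, edgeR adjusted p = 0.000149). As members of the saline tumors held 1 *Saa3* UMI in all, the difference from saline is given as a ratio, which was 31648 with an exact counting interval of 5679 to 1.25e+06 (edgeR adjusted p = 1.98e-05). A *Saa3* UMI was found in 70.2% and 75.5% of members after medium R848-BPDs, against 80.7% and 78.5% of non-cycling cells. In T or NK cells of these tumors, which should lack it, the share was 37.3% and 42.9% (median 6929 and 5700.5 UMIs per cell, against 8938.5 and 6279 in members), and after thinning to 2000 UMIs it was 56% and 59.2% in members and 17.7% and 30.4% in T or NK cells. The share was thus higher in members than in T or NK cells in both tumors, raw and thinned. The part of free RNA in these shares was not tested.

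*Lcn2* (chr2:32384633-32388252), the iron-siderophore binder lipocalin 2, was at 0 CPM in members of all 3 saline tumors, at 1.34, 4.23 and 0 after free R848, and at 268 and 246 after medium R848-BPDs. It was at least 384-fold higher than after saline (with 3 UMIs taken over the saline group) and 6.70 ± 0.40 higher than after free R848 on the log2 scale (edgeR adjusted p = 2.27e-05 and 0.000149). In the 2 medium R848-BPD tumors it was found in 56% and 34.7% of members and in 10.8% and 25.7% of T or NK cells. *Nos2*, inducible nitric oxide synthase, was at 6.42, 14.8 and 12.2 CPM after saline, 26.8, 16.9 and 12 after free R848, and 85.2 and 388 after medium R848-BPDs (4.22 ± 0.57 against saline, edgeR adjusted p = 0.00364). Both genes were above every control tumor in both medium R848-BPD tumors, with *Nos2* differing between the pair more than *Lcn2*.

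*Cd38*, an enzyme that consumes NAD, was at 2.75, 13.4 and 3.06 CPM after saline, 38.9, 15.9 and 12 after free R848, and 163 and 363 after medium R848-BPDs (4.90 ± 0.55 against saline, edgeR adjusted p = 0.00178, and 3.45 ± 0.52 against free R848, 0.0258). It was found in 59.5% and 69.4% of members after medium R848-BPDs and in 19% and 28.6% of T or NK cells. *Bst1*, its paralog CD157, was at 50.5, 57.6 and 68.8, then 53.7, 41.3 and 57.6, and then 220 and 514 CPM (2.84 ± 0.33 against free R848, edgeR adjusted p = 0.00433). Saline and free R848 tumors overlapped in *Bst1*, and both medium R848-BPD tumors were above them.

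*Sod2*, mitochondrial superoxide dismutase, ran from 91.5 to 115 CPM after saline and from 103 to 127 after free R848, and was at 356 and 574 after medium R848-BPDs (2.15 ± 0.23 against saline, edgeR adjusted p = 0.00118, and 2.04 ± 0.23 against free R848, 0.00433). *Irak3*, an inhibitor of toll-like receptor signaling, was at 24.8 to 39.9, then 40.3 to 62.4, and then 154 and 117 CPM (2.01 ± 0.26 against saline, edgeR adjusted p = 0.0027). *Fpr1*, the formyl peptide receptor, was at 0.917, 12 and 4.59, then 14.8, 5.29 and 12, and then 129 and 111 CPM (4.01 ± 0.49 against saline, edgeR adjusted p = 0.00267). *Sod2*, *Irak3* and *Fpr1* stood above every control tumor in both medium R848-BPD tumors.

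*Ccl5*, a T cell chemokine, was at 30.3, 102 and 87.2 CPM after saline, 505, 400 and 142 after free R848, and 954 and 1031 after medium R848-BPDs (3.74 ± 0.51 against saline, edgeR adjusted p = 0.00364). Here the free R848 tumors lay between the other two groups and overlapped with neither. *Tmem176a*, a membrane protein of myeloid cells, was at 7.34 to 14.8, then 12 to 45.5, and then 165 and 91.4 CPM (3.44 ± 0.41 against saline, edgeR adjusted p = 0.00249). Whichever tumor was left out, the calls against saline held for *Saa3*, *Lcn2*, *Marco*, *Cd38*, *Nos2*, *Fpr1*, *Ccl5*, *Sod2*, *Irak3*, *Tmem176a* and *Plau*, and those against free R848 for *Saa3*, *Lcn2* and *Marco*. Against free R848, *Nos2*, *Cd38*, *Fpr1*, *Fbxl5*, *Irak3*, *Bst1* and *Sod2* each lost the call without free R848 replicate 2, at 3.42, 3.18, 3.13, 2.33, 1.46, 2.69 and 1.98. Without medium R848-BPD replicate 2 the first 5 of these lost it, at 2.13, 2.81, 3.65, 1.63 and 1.70, and without free R848 replicate 3 the same 5 lost it, at 3.37, 3.25, 3.64, 2.45 and 1.73. Without free R848 replicate 1 *Nos2*, *Fpr1*, *Fbxl5* and *Irak3* lost it (3.88, 3.98, 2.65 and 1.44), without medium R848-BPD replicate 1 *Fpr1* and *Irak3* (3.44 and 1.32), and without saline replicate 3 *Nos2* and *Irak3* (3.52 and 1.55).

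**Figure D4:**
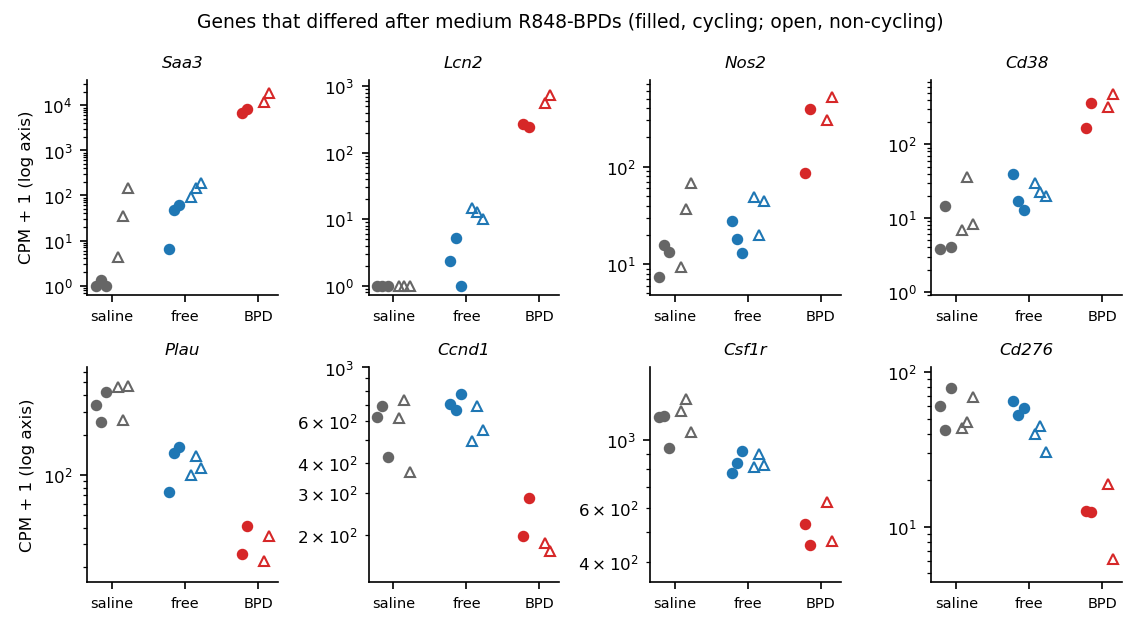
CPM + 1 (log axis) of 8 genes by treatment in members (filled circles) and non-cycling cells (open triangles), 1 point per tumor. In members *Saa3* is at 6779 and 8316 CPM after medium R848-BPDs and at 60 or less in the control tumors, and *Plau*, *Ccnd1*, *Csf1r* and *Cd276* are lowest after medium R848-BPDs.

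Some of the increases rested on few cells. *Marco* was at 0, 0.707 and 0 CPM after saline, 0 in all free R848 tumors, and 121 and 428 after medium R848-BPDs. It was at least 139-fold higher than after free R848, and its ratio to saline, with 2 UMIs there, was 448 (exact counting interval 123 to 3719). It was found in 9.52% and 10.2% of members, and 80.7% of its UMIs in medium R848-BPD replicate 2 came from 1 member. *Cxcl3*, a neutrophil chemokine, was at 38.9 and 383 CPM after medium R848-BPDs against 1.06 to 4.59 after saline (6.33 ± 1.12, edgeR adjusted p = 0.0175), and its call was lost without medium R848-BPD replicate 2, at 3.93, and without saline replicate 1, at 6.66. *Mmp8*, neutrophil collagenase, lost its call without medium R848-BPD replicate 1, at 3.68. *Procr* lost its call without medium R848-BPD replicate 2 (1.78), saline replicate 3 (2.33) or free R848 replicate 1 (2.46).

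Genes of several other lists moved singly. *Hmox1*, heme oxygenase 1, was at 51.4, 44.2 and 115 CPM after saline, 87.2, 165 and 300.2 after free R848, and 305 and 774 after medium R848-BPDs (2.99 ± 0.54 against saline, edgeR adjusted p = 0.0196), and *Plin2*, which coats lipid droplets, at 201 to 312, then 392 to 550, and then 709 and 945 (1.77 ± 0.24, 0.00364). These were among 3 of 14 lipid-associated genes that rose, while 3 of 12 monocyte genes rose, among them *Hp* and *Ms4a4c*. *Rsad2* was the 1 of 43 interferon-stimulated genes that was called, at 391 to 406, then 408 to 658, and then 782 and 2232 CPM (1.91 ± 0.35, edgeR adjusted p = 0.0215), with a list median of 0.84. Without medium R848-BPD replicate 2 the calls of *Hmox1*, *Plin2* and *Rsad2* were lost, at 2.18, 1.54 and 0.96. That of *Hmox1* was also lost without saline replicate 1 (2.82), and that of *Rsad2* without saline replicate 1 (1.93) or 3 (1.91). That of *Hp* was lost without medium R848-BPD replicate 1 (3.97) or 2 (4.19), and that of *Ms4a4c* on leaving out any of 5 tumors (0.93 to 1.30). *Tlr7* was at 59.7 to 86.6 CPM after saline, 73 to 96.6 after free R848, and 65.2 and 128 after medium R848-BPDs, and was not called in any comparison of treatments.

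Genes that fell after medium R848-BPDs included the G1 cyclin and the growth factor receptor. *Ccnd1* (chr7:144929931-144939925), cyclin D1, was at 620, 690 and 421 CPM after saline, 705, 667 and 773 after free R848, and 197 and 285 after medium R848-BPDs. It was lower than every control tumor in both medium R848-BPD tumors (-1.28 ± 0.26 against saline, edgeR adjusted p = 0.0304, and -1.59 ± 0.26 against free R848, 0.0398). *Cdk6*, its partner kinase, was at 72.5, 55.5 and 59.7, then 57.7, 40.2 and 48, and then 23.1 and 22.8 CPM (-1.43 ± 0.27 against saline, edgeR adjusted p = 0.0259), so that 2 of 14 G1 drivers fell and none rose. *Csf1r*, the CSF1 receptor, was at 1179, 1188 and 935, then 778, 837 and 917, and then 531 and 451 CPM (-1.16 ± 0.19 against saline, edgeR adjusted p = 0.0129). Each of these calls was lost in some of the fits with 1 tumor left out, at log2 fold changes that stayed negative. Without medium R848-BPD replicate 2 each was lost against saline (*Ccnd1* at -1.57, *Cdk6* at -1.44, *Csf1r* at -1.06). That of *Cdk6* was also lost without medium R848-BPD replicate 1 (-1.44) or saline replicate 1 (-1.31). The call of *Ccnd1* was lost against saline on leaving out any tumor but saline replicates 2 and 3 (-1.57 to -1.02), and against free R848 on leaving out any but the same 2 (-1.87 to -1.32).

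Genes of the later cycle hardly passed the test within members. On simulated counts that test called 27 of 100 genes changed by a log2 fold of 1, so few calls are not absence of a change. Of 43 S phase genes 41 had a negative log2 fold change against saline and 1 was called, *Mcm6*, a subunit of the replicative helicase, at 262, 206 and 237, then 158, 205 and 173, and then 114 and 131 CPM (-0.95 ± 0.21, edgeR adjusted p = 0.042). Of 52 G2 and M phase genes 48 were negative and 1 was called, *Cbx5* (-1.27 ± 0.22, edgeR adjusted p = 0.0174). The list medians were -0.70 and -0.45 against saline and -0.26 and 0.11 against free R848. The depth of the gate differed between groups as given above, and with the same number of cells from each tumor *Mcm6* was at -0.34 and not called, while with at least 4 gate UMIs it was at -0.56 and not called. *Mcm6* also lost its call on leaving out any tumor but saline replicate 2 (-1.06 to -0.84), and *Cbx5* without medium R848-BPD replicate 2 (-1.05) or saline replicate 1 (-1.22).

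*Plau* (chr14:20836660-20843385), the urokinase-type plasminogen activator, fell most firmly. It was at 336, 248 and 422 CPM after saline, 73.8, 145 and 161 after free R848, and 24.2 and 40 after medium R848-BPDs, with no overlap between any 2 groups (-3.48 ± 0.41 against saline, edgeR adjusted p = 0.00245). *Clec5a*, an activating lectin receptor of myeloid cells, went from 360, 195 and 378 to 158, 129 and 127 and to 84.1 and 48.5 CPM (-2.15 ± 0.34, edgeR adjusted p = 0.00889). *Cd276*, the checkpoint ligand B7-H3, was at 41.3 to 78, then 51.9 to 64.4, and then 11.6 and 11.4 CPM (-2.31 ± 0.37 against saline, 0.0104, and -2.32 ± 0.38 against free R848, 0.0398). *Angptl2*, *Pmepa1*, *Nfkbid*, *Dock5*, *Mef2c*, *Gpr132* and *Spint1* also fell against saline, with log2 fold changes of -4.33 for *Angptl2* to -1.63 for *Spint1*, and *Itgb5*, an integrin subunit, against free R848 (-1.14 ± 0.19, edgeR adjusted p = 0.0445). *Tlr2* was the 1 toll-like receptor that fell, from 465 to 594 CPM after saline to 242 and 226 (-1.15 ± 0.21, 0.0215). Apart from *Plau*, each gene that fell against saline here lost its call without medium R848-BPD replicate 2, *Clec5a* at -1.88, *Cd276* at -2.31 and *Tlr2* at -1.11, and the 7 genes from *Angptl2* to *Spint1* each also lost it without at least 1 other tumor. *Cd276* and *Tlr2* lost it without medium R848-BPD replicate 1 too (-2.32 and -1.20), and *Tlr2* without saline replicate 1 (-1.04). Against free R848 the call of *Cd276* was lost on leaving out any tumor but saline replicates 2 and 3 (-2.41 to -2.22), and that of *Itgb5* on leaving out any but saline replicate 2 (-1.29 to -1.04).

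*Ciita*, the master regulator of MHC class II genes, had 1 UMI in members after medium R848-BPDs and 105 after saline, a ratio of 0.0322 (exact counting interval 0.000808 to 0.183, edgeR adjusted p = 0.0442), and its call was lost on leaving out any tumor but saline replicate 3. It was the 1 of 7 MHC class II genes that was called, and all 7 had a negative log2 fold change against saline (median -1.28), against free R848 (median -0.61) and for free R848 against saline (median -0.54). *H2-Ab1* was at 1331, 5188 and 749 CPM in members of the saline tumors, 1992, 884 and 1844 after free R848, and 571 and 1519 after medium R848-BPDs. The saline tumors overlapped with both other groups, with saline replicate 2 far above all others, and *H2-Aa* against saline turned to 0.02 without that tumor.

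The response to treatment was compared between members and non-cycling cells by a class-by-treatment term (tumor as a block, edgeR, 9260 genes). It was called for 10 genes against saline (0.108%, 9 higher or 0.0972% and 1 lower or 0.0108%), for 2 against free R848 (0.0216%, 1 in each direction or 0.0108%), and for 9 between free R848 and saline (0.0972%, 5 higher or 0.054% and 4 lower or 0.0432%). Most genes named above therefore had no called difference of response between the classes. On simulated counts this term was called for 35 of 100 genes with a log2 difference of 1 and 83 of 100 with 2. Smaller differences of response would mostly be missed. For comparison, within non-cycling cells 554 of 9096 genes (6.09%) were called for medium R848-BPDs against saline (277 or 3.05% in each direction), 191 (2.1%) against free R848 (130 or 1.43% higher and 61 or 0.671% lower) and 0 (0%) for free R848 against saline, where sums were larger.

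The MHC class II genes *H2-Ab1*, *H2-Aa*, *H2-Eb1*, *H2-DMb1* and *Cd74* made up 5 of the 10. In non-cycling cells *H2-Ab1* (chr17:34257689-34269419) was at 2723, 8858 and 1661 CPM after saline, 2803, 1087 and 2480 after free R848, and 581 and 998 after medium R848-BPDs. Members were below non-cycling cells in all saline and free R848 tumors, and at 571 against 581 and 1519 against 998 CPM in the 2 medium R848-BPD tumors. The difference of the responses was 1.26 ± 0.16 for *H2-Ab1* on the log2 scale (edgeR adjusted p = 0.000866), and 1.28 to 1.49 for the other 4. Dendritic cell markers moved with these genes, as members of medium R848-BPD replicate 2 held 2.8 UMIs of that list per 10000, with 56% from 1 member and *Ccr7* at 1.57 and *Fscn1* at 1.09, against 0.491 in non-cycling cells of that tumor. In medium R848-BPD replicate 1 the list was at 0.821 in members and 1.5 in non-cycling cells, and it was at 0.271 to 0.469 in members of the control tumors. The part of these cells in the difference was not tested. In members of the 2 medium R848-BPD tumors 33.1% and 29.7% of the *H2-Ab1* UMIs came from 1 cell each. With non-cycling cells chosen to match members on UMIs the 5 differences were 0.57 to 1.36 and none was called, although members stayed deeper in saline replicates 1 and 2, as given above, while medians in the medium R848-BPD tumors were 8938.5 against 8960 and 6279 against 6312 UMIs. Also, without medium R848-BPD replicate 2 they were 0.74 to 1.36 and none was called. Without saline replicate 1 all but *H2-Ab1* lost the call (1.22 to 1.49). *H2-Aa* and *H2-Eb1* also lost it without saline replicate 3 (1.32 and 1.19) or free R848 replicate 3 (1.48 and 1.30), and *H2-DMb1* without medium R848-BPD replicate 1 (1.52).

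*Slfn4*, an interferon-induced gene of myeloid cells, was at 172, 106 and 176 CPM in members of the saline tumors, 258, 437 and 514 after free R848, and 248 and 491 after medium R848-BPDs. In non-cycling cells it was at 413, 223 and 412, then 354, 664 and 583, and then 241 and 413 CPM, so that only members were without overlap between saline and the other treatments. The difference of the responses to medium R848-BPDs was 1.32 ± 0.17 (edgeR adjusted p = 0.000866), and was not called with non-cycling cells chosen to match on UMIs (0.93) or without medium R848-BPD replicate 2 (1.19). *Saa3* was at 3.31, 34.8 and 149 CPM in non-cycling cells of the saline tumors, where 1, 4 and 1 cells held a UMI, 91.1, 145 and 191 after free R848 and 11668 and 18722 after medium R848-BPDs. Its level in members was below that in non-cycling cells in 8 of 8 tumors, and its term rests on the single *Saa3* UMI of the saline members, so its size depends on the prior count of the fit and is no bound.

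**Figure D5:**
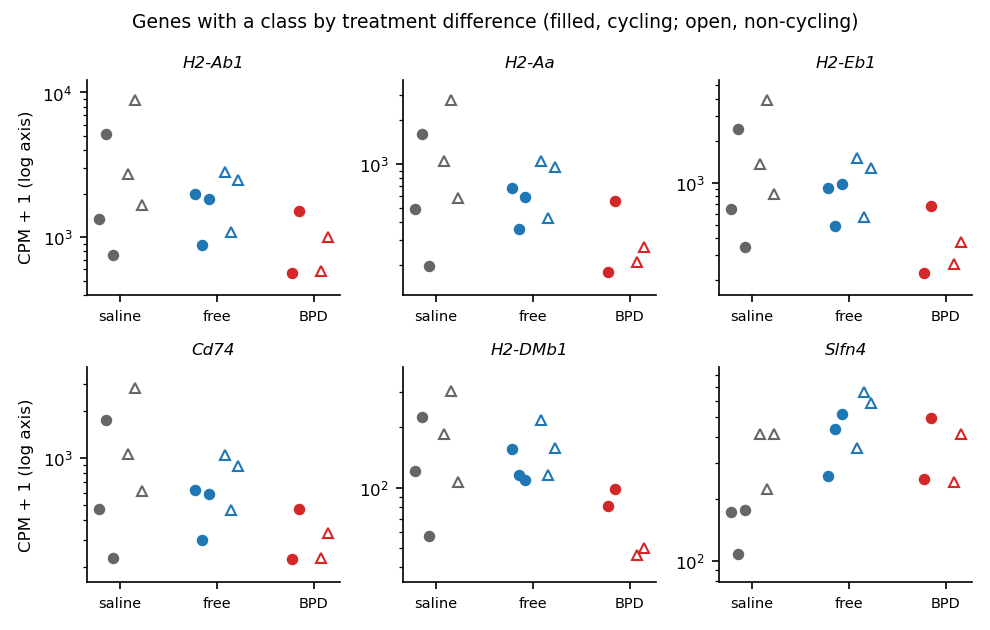
CPM + 1 (log axis) of 6 genes with a called class-by-treatment term against saline, by treatment, in members (filled circles) and non-cycling cells (open triangles), 1 point per tumor. For *H2-Ab1* members lie below non-cycling cells in the saline and free R848 tumors and at 571 against 581 and 1519 against 998 CPM after medium R848-BPDs.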

How the data were processed

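Dissociated MC38 tumors were profiled on Seq-Well arrays. The authors deposited raw UMI counts for each tumor without normalization. The submitters' processing notes name mm10 and bcl2fastq, and the aligner and annotation are not given in the sources used here. Of 10791 barcodes, 9886 were kept with over 400 genes, under 10000 genes, under 50000 UMIs and no more than 15% of UMIs from mitochondrial genes. The members, gene lists and tests were chosen with earlier results of these data known.

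UMIs were summed by tumor and class. They were tested with edgeR 4.0.16 in R 4.3.3 (filterByExpr, TMM, quasi-likelihood F test, Benjamini-Hochberg adjustment at 0.05). Each SE was taken as the size of the log2 fold change divided by the root of its F statistic. Values per tumor were compared by two-sided exact permutation tests. Named genes were those of the fixed lists, up to 10 per direction with the largest called change (average log2 CPM of 5 or more, groups without overlap or 1 sign in all tumors), and those with a called class-by-treatment term. Some items that this rule names are not reported here. Of the listed symbols, 5 were matched through RefSeq synonyms. Gene positions are from GENCODE on GRCm38. Scrublet (scanpy 1.11.5, expected rate 0.05) scored doublets. The fits were tested on simulated counts. Alternatives included DESeq2 1.42.0, RLE size factors, an unfiltered table, fits of 2 groups, 49 cells per tumor, stricter gates, non-cycling cells chosen to match on depth, a block for the replicate number, and leaving out single tumors. Intervals are exact (Clopper-Pearson, 95%) and cover counting error only.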

Additional observations from a re-analysis of the deposited data

Results flagged for a closer look

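The results listed here differed between members and non-cycling cells by a direct test of the difference of their responses (class-by-treatment term, edgeR, adjusted over 9260 genes). Values are the response in members minus that in non-cycling cells on the log2 scale.

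For medium R848-BPDs against saline these were *H2-Ab1* (1.26), *H2-Aa* (1.49), *H2-Eb1* (1.30), *H2-DMb1* (1.46), *Cd74* (1.28), *Slfn4* (1.32), *Saa3* (6.14), *Apoc2* (1.08), *Gadd45b* (0.82) and *Gzmg* (-8.59). *Apoc2*, an apolipoprotein, was at 93.6, 58.6 and 59.7 CPM in members of the saline tumors and at 256 and 228 after medium R848-BPDs, against 181, 143 and 134 and then 287 and 214 in non-cycling cells. *Gadd45b*, a stress-response gene, was at 642, 396 and 694 CPM and then 518 and 622 in members, and at 1094, 616 and 1240 and then 474 and 617 in non-cycling cells. *Apoc2* (0.92 to 1.19) and *Gadd45b* (0.71 to 0.84) both lost the call on leaving out any 1 of the saline or medium R848-BPD tumors.

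For medium R848-BPDs against free R848 these were *Gzmb* (4.27) and *Mmp12* (-2.24). *Gzmb*, the cytotoxic protease granzyme B, was at 9.39, 2.12 and 0 CPM in members after free R848 and at 164 and 220 after medium R848-BPDs. In the 2 medium R848-BPD tumors 78.2% and 100% of its UMIs came from 1 member each. Without cells scored as doublets the *Gzmb* term was 3.15 and not called. *Mmp12*, macrophage elastase, lost its call on leaving out free R848 replicate 2 (-1.90), and again on leaving out replicate 1 of medium R848-BPDs (-1.93).

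For free R848 against saline these were *Saa3* (5.11), *Ctsk* (2.14), *Mmp12* (2.04), *Gpnmb* (1.47), *Acp5* (0.93), *Gzmb* (-4.17), *Gzmd* (-6.84), *Gzmf* (-6.34) and *Gzmg* (-7.40). In saline replicate 1, 94.4% of the *Gzmg* UMIs of members, 86.7% of the *Gzmd* UMIs and 100% of the *Gzmf* UMIs came from 1 member, and without that tumor all 4 granzyme calls were lost, at -2.61 for *Gzmb*, -3.58 for *Gzmd*, -1.76 for *Gzmf* and -2.45 for *Gzmg*. Without free R848 replicate 2 those of *Gzmd*, *Gzmf* and *Gzmg* were lost too (-5.88, -3.91 and -3.94), and that of *Gzmf* also without replicate 3 of free R848 (-6.37) or of saline (-6.48). The *Gzmg* term against saline after medium R848-BPDs was likewise lost without it, at -3.69, and without medium R848-BPD replicate 1, at -7.43. Members after medium R848-BPDs held 2 *Gzmg* UMIs in all, so the size of that term depends on the prior count of the fit. *Ctsk*, cathepsin K, was at 141 CPM in members and 455 in non-cycling cells of saline replicate 3, and at most 1.83 in both classes of the other saline tumors. *Ctsk* and *Acp5* are markers of osteoclasts, and in members of free R848 replicate 2, where that list of 6 genes was highest at 15.2 UMIs per 10000, 52.1% of its UMIs came from 1 member. Without saline replicate 3 the terms of *Ctsk*, *Acp5*, *Mmp12*, *Gpnmb* and *Saa3* were 0.096, 0.84, 1.70, 1.56 and 4.22 and none was called. Without free R848 replicate 2 *Mmp12* (1.69) and *Gpnmb* (1.16) lost the call, as did *Gpnmb* without saline replicate 1 (1.35) and *Saa3* without saline replicate 2 (7.04). *Saa3* rests on 1 UMI in members of the saline tumors.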

How the results depend on the processing

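The share of cycling cells kept its direction in each comparison and under each alternative. Among treatments in members, edgeR calls for free R848 against saline, medium R848-BPDs against free R848 and medium R848-BPDs against saline numbered 0, 19 and 163. They numbered 16, 46 and 210 by DESeq2, 239, 306 and 653 without the filter on low counts, 0, 72 and 55 with only the 2 groups compared, 1, 39 and 189 with 49 cells per tumor, and 0, 11 and 52 with at least 4 gate UMIs. Leaving out 1 tumor at a time gave 0 to 26, 4 to 58 and 37 to 275. Between members and non-cycling cells 2675 genes were called, 1153 without the tumor as a block and 2213 to 2683 with 1 tumor left out. Class-by-treatment calls in the same order of comparisons were 9, 2 and 10. They were 3, 1 and 5 by DESeq2, 42, 41 and 53 without the filter, 5, 2 and 3 with non-cycling cells chosen to match on depth (incomplete in saline replicates 1 and 2), 5, 0 and 11 without doublets, and 4 to 19, 2 to 5 and 3 to 13 with 1 tumor left out. The log2 ratio of S phase to G2 and M phase UMIs changed sign, from -0.76 to 0.27 for medium R848-BPDs against free R848 and from -0.47 to 0.56 against saline. Of single genes, *Tlr7* ran from -0.19 to 0.80 and *H2-Aa* from -2.13 to 0.023 against saline as tumors were left out, and *Marco* between classes was -0.36 without cells holding other cells' markers. The cause of these shifts was not tested. Over 150 single-gene results and 2394 alternatives, 1962 kept direction and call, 421 lost the call, 8 gained it and 3 reversed. Of the 143 results called in the main fit, 70 kept the call whichever tumor was left out. Of 24787 genes listed, 8404 passed the filter on low counts in members, and the others were not tested there.

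Replicate numbers did not pair the tumors, since same-numbered tumors correlated at -0.219 to 0.0701. With the replicate block the calls were 0, 8 and 68.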
